A study of Homo sapiens with 23 samples.

Results

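The 60 genes described here were transcribed less in the first hour after TRPS1 was targeted for degradation and were back near their control level by 4 h. They were chosen by a rule on the measured values. Of 60605 annotated genes, 14148 had a mean raw count of at least 100 over the 23 libraries. For these, the log2 ratio of the mean CPM (counts per 1000000, scaled by TMM factors) at each time to the mean CPM in DMSO was taken. A gene qualified when its ratios at 0.5 h and at 1 h were both below -0.1 and its ratio at 4 h was above -0.1, and 543 genes did. The score was the smaller of the 4 h and 24 h ratios minus the larger of the 0.5 h and 1 h ratios, and the 60 genes with the highest scores, leaving out LINC and potassium channel (KCN) symbols, form the group. Scores ran from 0.3596 (SDCBP) to 0.1635 (TBC1D10A). Because the ratios at 0.5, 1, 4 and 24 h made the choice, they are given below as a description and not as a test.

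The cells were T47D, a luminal breast cancer line that expresses the estrogen receptor, from a single clone (dTAG-TRPS1 Clone 28) that carries a degron tag on TRPS1, and per the study's methods this clone makes only the tagged protein. Controls received 0.1% DMSO for 24 h (n = 4), and treated cells received dTAG-13 and dTAG-V-1 at 50 nM each for 0.5, 1, 2 or 4 h (n = 4 each) or 24 h (n = 3). All groups share the tagged clone, and no vehicle samples of 0.5 to 4 h were analysed, so the loss of TRPS1 and the addition of the compounds cannot be told apart. Per the labels each sample was plated on its own and the 4 replicates were handled at separate times of 1 day, so p-values measure the spread between platings of 1 clone on that day.

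TRPS1 is a GATA-family zinc finger protein that binds chromatin and is best known as a repressor, in breast cancer cells of the luminal type among others. The dTAG molecules join a tagged protein to a ubiquitin ligase, so that the proteasome removes the existing protein without a change in its gene. PRO-seq, the assay used here, labels RNA in engaged polymerases, and its counts follow ongoing transcription, not the amount of mRNA or protein.

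Total counts ranged from 4408544 to 17571616 per library. The luminal genes ESR1, PGR, GATA3, FOXA1, KRT8, KRT18 and KRT19 had median CPM values from 60 to 2453 over all libraries. Of the basal or mesenchymal markers, KRT5, KRT14 and VIM had medians of 0.0761, 0.12 and 1.53 CPM, while TP63 had a median of 26.3 CPM, and the leukocyte gene PTPRC had 3.24. Nascent counts over TRPS1 itself lay between 8373 and 10510 CPM in DMSO and between 9279 and 12378 CPM with dTAG. They do not report the protein that dTAG removes. The library of replicate 1 at 4 h had the lowest total and the highest share of mitochondrial counts, 6.5% against 1.73% to 4.24% in the other libraries.

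As a group the 60 genes were low from the first time measured, were part of the way back after 2 h and were near the control level after 4 h. Their median log2 ratio to DMSO was -0.20 at 0.5 h (range -0.37 to -0.10) and -0.21 at 1 h (range -0.38 to -0.12), the values that chose them. It was -0.07 at 2 h, a time the rule did not use, and then 0.03 (4 h) and 0.07 (24 h), when 48 of the 60 were above their DMSO mean. Over all 14148 genes the median stayed between -7e-04 and 0.0057 at every time. A comparison group of 60 genes that were low early and late had a median of -0.22 at 0.5 h, with -0.31 at both 2 h and 24 h. These genes had both early ratios below -0.1 and the lowest values of the larger of the 4 h and 24 h ratios. Only their 2 h ratios were not used in that choice.

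**Figure D1:**
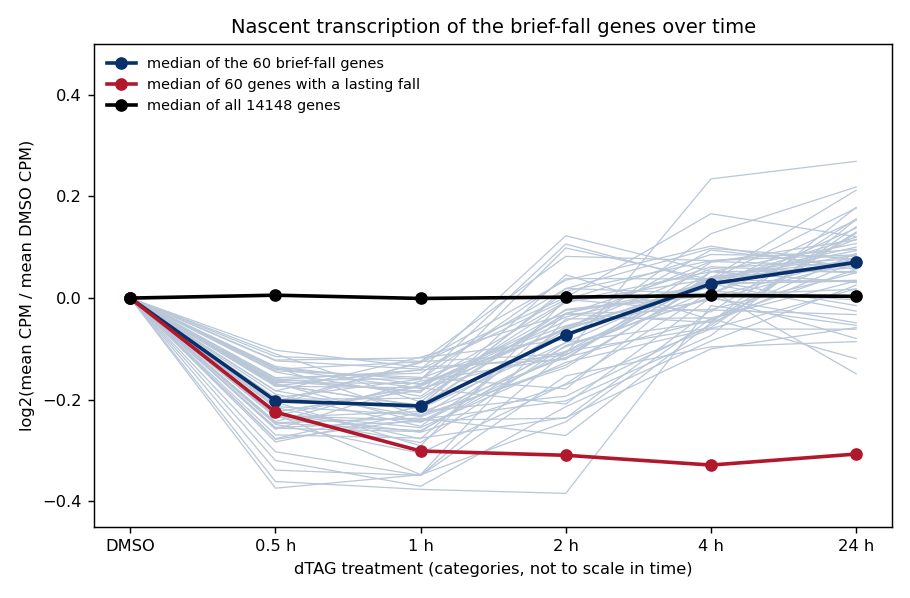
Log2 ratio of the mean CPM at each time to the mean CPM in DMSO, for each of the 60 brief-fall genes (thin lines) and as medians of 3 groups of genes (points joined by thick lines). The brief-fall median is -0.21 at 1 h, -0.07 at 2 h and 0.07 at 24 h, while the lasting-fall median stays near -0.31 from 2 h on.

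These are small changes on the log2 scale, and their size sets how far single genes can be read. The median counting error of a gene's ratio was 0.063 at 0.5 h and 0.073 at 1 h on the log2 scale. It covers the sampling of reads and not the spread between libraries. Both early ratios exceeded 2 counting errors in 45 of the 60 genes. The rule chose these ratios for being low, so nothing is read from this count. The genes had a median of 270.6 counts per library, from 102.7 (PRSS8) to 1340 (HK1). At the edge of the choice, MARCHF9 and TBC1D10A were the last genes inside with scores of 0.1648 and 0.1635, and WDTC1 and LLGL2 were the first outside with scores of 0.163 and 0.1629. LLGL2, a cell polarity protein, had ratios of -0.23 at 0.5 h and 0.07 at 4 h, much like the genes inside.

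SFXN3, a sideroflexin that carries serine into mitochondria and was put forward as typical of this pattern, did not meet the rule. Its ratios in time order were -0.40, -0.40, -0.13, -0.22 and -0.07, and the fourth, for 4 h, is below the limit of -0.1. In DMSO it had 24.1, 28.4, 26.4 and 26.4 CPM in replicates 1 to 4, and at 4 h 22.0, 24.2, 22.3 and 22.2 CPM. All but 1 of the 4 h libraries lay below every DMSO library. It is therefore not counted among the 60.

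The 60 genes are 55 protein-coding genes and 5 long noncoding RNA genes, and no pathway holds most of them. They include chromatin and transcription regulators (TFE3, AHDC1, RFX5, HDAC11, HDAC5, BCL3, PLAG1, TADA2B and NCOA7), proteins of epithelial surfaces and junctions (CGN, PRSS8, SCNN1A and ANXA9), enzymes and transporters (HK1, CAPN1, CTSB, SLC11A2, ABCA7 and PNPLA6) and signalling proteins (TNFRSF1A, MAPK8IP3, CDK6 and INHBB). This grouping was made after the values were seen and was not tested.

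Promoter sequence was examined because TRPS1 binds GATA motifs and the cells depend on the estrogen receptor. A RefSeq promoter on GRCh38.p14 (300 bases, from 250 before to 50 after the first start site listed) was found for 44 of the 60 genes and for 9979 of the eligible genes. The promoters of 5 genes are shown, as the 250 bases before the start, 5′ to 3′ on the gene's strand. Capitals mark, on either strand, AGGTCA, the core that estrogen receptors bind in pairs, and the GATA letters searched, which were GATAA or GATAG after an A or a T. CGN (chr1:151511137-151511386, plus strand) and ANXA9 (chr1:150982042-150982291, plus strand) hold the AGGTCA core. CAPN1 (chr11:65181678-65181927, plus strand) and TTBK2 (chr15:42920779-42921028, minus strand) hold 2 GATA matches each, and FASTKD1 (chr2:169573866-169574115, minus strand) holds 1.
CGN: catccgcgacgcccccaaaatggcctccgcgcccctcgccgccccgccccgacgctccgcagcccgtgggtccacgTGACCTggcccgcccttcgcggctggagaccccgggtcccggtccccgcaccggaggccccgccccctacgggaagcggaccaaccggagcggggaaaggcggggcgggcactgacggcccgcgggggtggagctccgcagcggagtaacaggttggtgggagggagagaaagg
ANXA9: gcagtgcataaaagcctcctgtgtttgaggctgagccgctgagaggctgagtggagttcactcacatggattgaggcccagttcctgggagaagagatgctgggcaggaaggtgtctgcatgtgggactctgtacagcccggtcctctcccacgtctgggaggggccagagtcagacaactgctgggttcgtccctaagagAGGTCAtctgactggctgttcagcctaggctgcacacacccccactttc
CAPN1: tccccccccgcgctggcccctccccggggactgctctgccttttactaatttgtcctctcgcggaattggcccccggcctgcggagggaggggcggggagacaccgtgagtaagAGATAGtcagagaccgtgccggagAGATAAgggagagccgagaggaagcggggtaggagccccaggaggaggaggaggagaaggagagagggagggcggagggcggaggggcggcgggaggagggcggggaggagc
TTBK2: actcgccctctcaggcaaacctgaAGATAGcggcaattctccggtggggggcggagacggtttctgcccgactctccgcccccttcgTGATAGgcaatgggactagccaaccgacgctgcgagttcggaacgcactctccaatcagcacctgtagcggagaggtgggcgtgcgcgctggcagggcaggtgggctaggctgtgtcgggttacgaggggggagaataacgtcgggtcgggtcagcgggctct
FASTKD1: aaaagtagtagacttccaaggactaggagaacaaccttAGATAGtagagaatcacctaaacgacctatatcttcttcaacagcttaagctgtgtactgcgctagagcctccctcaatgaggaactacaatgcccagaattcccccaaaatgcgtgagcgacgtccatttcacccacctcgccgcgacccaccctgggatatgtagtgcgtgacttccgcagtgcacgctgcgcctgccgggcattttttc

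The GATA letters were in 7 of the 44 promoters (15.9%), against 14.6% of the eligible promoters. AGGTCA was in 5 (11.4%), against 9.5%. For both, the share of the 60 genes was close to that of all genes. The SP/KLF letters GGGCGG were in 36 (81.8%, against 70.1%), and the TATA box letters TATAAA were in none, against 5.6% of the eligible promoters. The letters CATTCC of TEAD factors were in 4 (9.1%, against 10.8%), TGANTCA of AP-1 in 3 (6.8%, against 4.1%) and CACGTG, the E-box, in 3 (6.8%, against 10.1%). The ETS letters CCGGAAGT and the CREB letters TGACGTCA were in 2 promoters each, the GRHL letters AACCGGTT and the full estrogen response element in none. Both strands were read, and a match is a description of these letters in this window.

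CGN, which encodes cingulin of the tight junction, had a mean count of 607.5 per library. Its CPM in replicates 1 to 4 was 66.8, 67.4, 60.6 and 68.2 in DMSO and 50.2, 57.3, 56.0 and 57.9 at 0.5 h. At 1 h it was 53.7, 51.4, 54.6 and 53.1, at 2 h 56.9, 60.4, 58.7 and 58.0, and at 4 h 78.9, 60.1, 63.0 and 63.4. Every library at 0.5, 1 and 2 h lay below every DMSO library, while the 4 h libraries overlapped them and the replicate 1 library at 4 h stood above all others. At 2 h the log2 fold change was -0.16 (SE 0.07), which did not pass the test without a replicate term (edgeR adjusted p = 0.519). With the replicate number as a block it did not pass either (edgeR adjusted p = 0.267).

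AHDC1, a DNA-binding protein with AT-hooks, and HSPH1, a partner of the HSP70 chaperone, had early falls among the deepest of the 60. AHDC1 had 40.5, 46.1, 37.0 and 40.8 CPM in DMSO, 31.5, 30.4, 33.9 and 36.0 at 0.5 h and 31.5, 31.1, 33.1 and 31.4 at 1 h. By 2 h it had 34.9, 36.0, 37.5 and 33.3 CPM, of which replicate 3 lay within the DMSO range. HSPH1 had 41.6, 40.4, 44.8 and 46.96 CPM in DMSO, 37.8, 34.0, 33.8 and 35.3 at 0.5 h and 30.6, 37.5, 34.5 and 33.9 at 1 h. None of its 8 early libraries reached the lowest DMSO library, and its later ratios were -0.15 (2 h), -0.10 (4 h) and -0.09 (24 h).

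**Figure D2:**
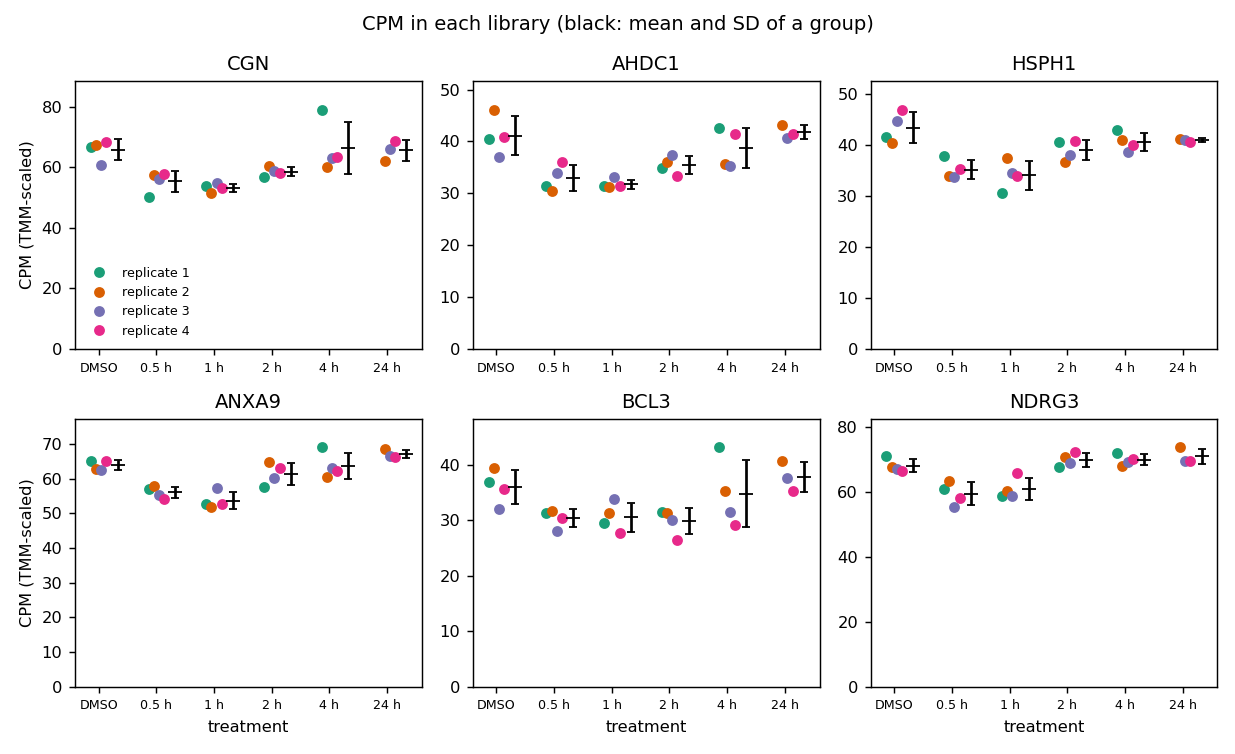
CPM of 6 genes in each library, by treatment, with points coloured by replicate number and the group mean and SD in black. In all 6 genes the 0.5 h libraries sit below the DMSO libraries, and in CGN and BCL3 the 2 h libraries do as well.

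At 2 h the ratios of the 60 genes ran from -0.38 to 0.12. The rule limited the ratios at the other times and not at this one, so the width of this range is not compared with theirs. At 2 h 49 of the 60 were below their DMSO mean and 11 above it, against 49.1% of all eligible genes below. The median gene kept 34% of its early fall, with 22 genes keeping over 50% and 24 genes under 25%. This share is the 2 h ratio over the mean of the 0.5 h and 1 h ratios. The rule chose those early ratios for being low, so the shares are a description, and no test divided the genes by them. The 2 h ratios share the DMSO libraries with the ratios that chose the genes, so they are not independent of the choice. In 51 of the 60 the ratio was higher at 4 h than at 2 h. The rule chose genes on the 4 h ratio and not on the 2 h ratio, so nothing is read from this count.

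BCL3, an inhibitor-like partner of NF-kappaB, was among the genes that stayed low longest. It had 36.9, 39.5, 32.1 and 35.6 CPM in DMSO, 31.3, 31.8, 28.1 and 30.5 at 0.5 h, and 31.5, 31.3, 30.1 and 26.5 at 2 h. The 2 h libraries all lay below the lowest DMSO library, and those at 4 h (43.2, 35.4, 31.6 and 29.3) ran from below the DMSO range to above it. Its 2 h fold change of -0.27 (SE 0.09) did not pass the test without the replicate term (edgeR adjusted p = 0.384) and passed it with the replicate number as a block (adjusted p = 0.0667).

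RFX5, ABCA7 and EEIG2 were the other genes with the lowest 2 h ratios. RFX5, which drives MHC class II genes, was at -0.24 at 2 h and -0.02 at 4 h. Its DMSO libraries were split, with 19.4 and 20.7 CPM in replicates 1 and 2 and 15.2 and 15.4 in replicates 3 and 4. ABCA7, a lipid transporter, was at -0.24 at 2 h and -0.04 at 4 h, and EEIG2 at -0.24 and -0.10. None of these 3 passed the test at 2 h in either fit.

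C17orf67 was the only one of the 60 called at 2 h without the replicate term, when 0.303% of all genes tested were called lower, with a log2 fold change of -0.38 (SE 0.09, edgeR adjusted p = 0.0799). With the replicate number as a block it was called too (edgeR adjusted p = 0.0212), when 1.13% of all genes were called lower. It had 11.9, 16.2, 15.6 and 16.2 CPM in DMSO and 11.3, 11.8, 10.6 and 12.3 at 2 h. The groups overlapped through the low replicate 1 library of DMSO. Without replicate 2, 3 or 4 in turn it was not called in the fit that has no replicate term. C17orf67 overlaps DGKE on the opposite strand, whose mean count of 317.5 is larger than its own 130.9 and whose ratio was -0.31 at 2 h and -0.30 at 4 h. It also overlaps TRIM25 on the same strand over 2387 bp, with a mean count of 798.9 and a ratio of 0.04 at 2 h. Strand use in the counting is not given in the sources used here, so reads of these genes cannot be told apart where they overlap.

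Other genes of the 60 had a 2 h mean at or above that of DMSO, and no test divided them from the rest. VAMP5, a vesicle SNARE, had a ratio of -0.17 at 0.5 h and 0.12 at 2 h, the highest of the 60 at that time, with 12.1, 9.0, 10.96 and 10.1 CPM in DMSO and 12.2, 13.1, 10.6 and 10.0 at 2 h. These libraries overlapped, its mean count was 106.2, and its 2 h fold change of 0.12 had an SE of 0.11. NDRG3, a member of the NDRG family, rested on far more counts. Its CPM was 71.1, 67.5, 67.2 and 66.4 in DMSO, 60.8, 63.4, 55.2 and 58.1 at 0.5 h, 58.7, 60.4, 58.6 and 65.9 at 1 h and 67.5, 70.8, 68.8 and 72.4 at 2 h. All 8 early libraries were below the DMSO range and all 4 libraries at 2 h were inside it or above. SLC11A2, an iron transporter also called DMT1, went from -0.14 at 0.5 h to 0.04 at 2 h in the same way. VAMP5, NDRG3 and SLC11A2 were named after their values were seen.

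**Figure D3:**
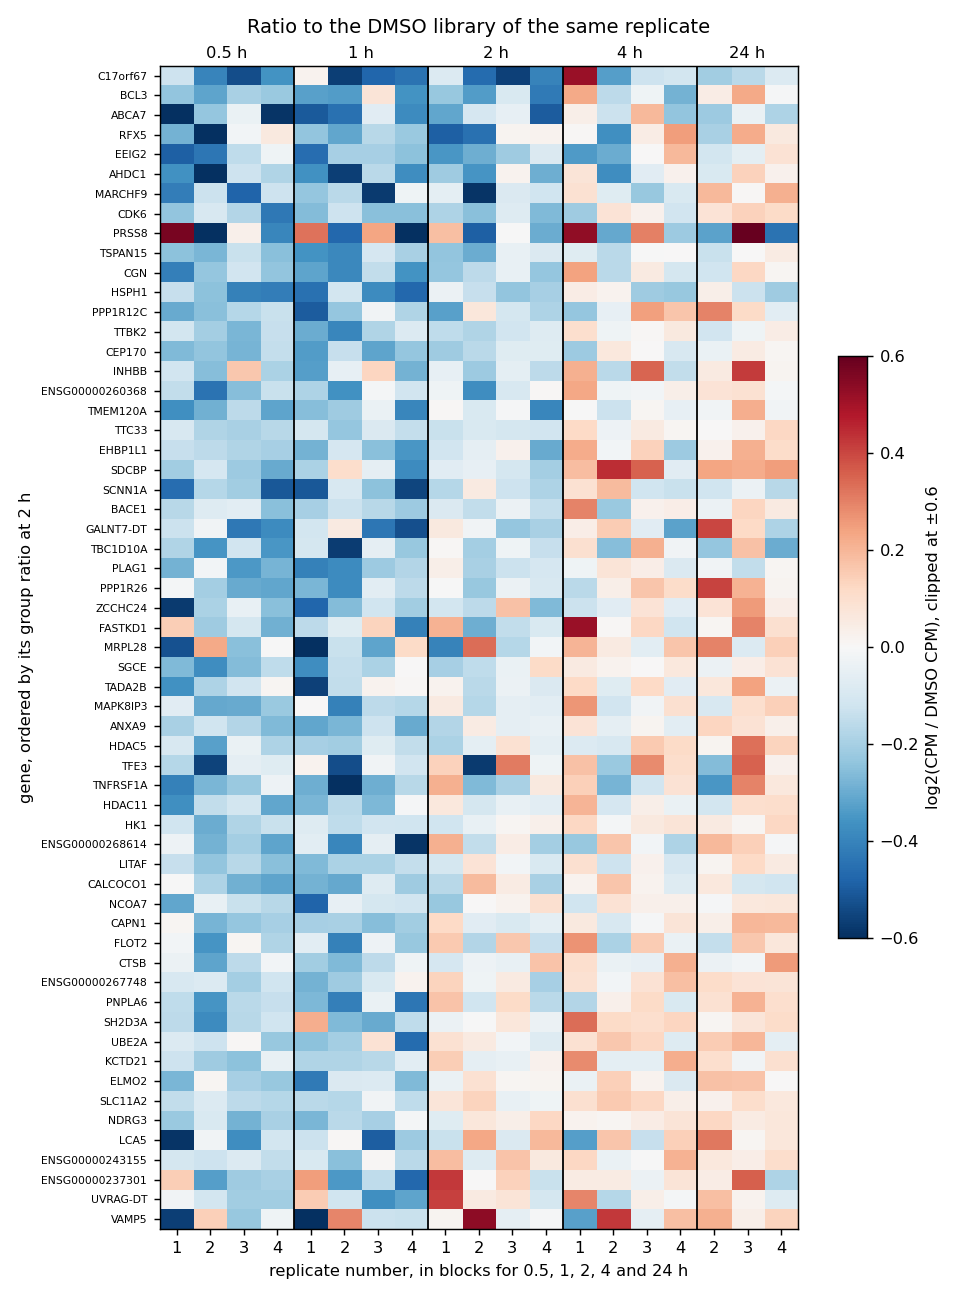
Log2 ratio of CPM in each treated library to the DMSO library of the same replicate number, for 59 of the 60 genes (rows, ordered by the ratio at 2 h) and 19 treated libraries (columns, in blocks by time). Blue marks lower and red higher than DMSO, with 94.6% of the values of all 60 genes at 0.5 h, 70.8% at 2 h and 28.9% at 24 h below 0. The rule used the values at all times but 2 h. Over all eligible genes, from 47.6% to 52% were below 0, depending on the pair of libraries.

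Read against the DMSO library of the same number, 227 of 240 values (94.6%) were lower at 0.5 h and 217 of 240 (90.4%) at 1 h. The share was 70.8% at 2 h, 43.3% after 4 h and 28.9% after 24 h. Over all eligible genes, from 47.6% to 52% of values were lower, depending on the pair of libraries. The values within a pair of libraries are not independent of each other. In 35 genes all 8 early pairs were lower, in 17 genes 7 of 8 and in 8 genes 6 or fewer. The rule used every time but 2 h, so nothing is read from these counts at the other times. At 4 h the pairs of replicate 1, whose library is the shallow one, had a median of 0.09, and those of replicates 2, 3 and 4 had medians of -0.04, 0.03 and -0.0029.

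Among the transcription regulators named above the 0.5 h ratios ran from -0.32 (AHDC1) to -0.16 (HDAC5 and NCOA7). TFE3, a regulator of lysosome genes, had 15.6, 21.0, 14.5 and 17.02 CPM in DMSO and 13.9, 14.3, 14.0 and 16.2 at 0.5 h. Its groups overlapped, and its highest value was the replicate 2 library of DMSO, beside a ratio of -0.22. HDAC11, the class IV histone deacetylase, had 39.6, 41.5, 37.7 and 39.9 CPM in DMSO and 30.7, 37.4, 34.9 and 32.2 at 0.5 h, which did not overlap. HDAC5, a class IIa deacetylase, had ratios of -0.16 in both early groups, then 0.02 (4 h) and 0.15 (24 h).

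The 4 epithelial genes kept from 25.2% (ANXA9) to 119.5% (PRSS8) of their early fall at 2 h. SCNN1A, the alpha subunit of the epithelial sodium channel, had 29.1, 25.9, 24.4 and 28.4 CPM in DMSO, 21.2, 22.96, 21.1 and 19.9 at 0.5 h and 20.5, 24.2, 20.6 and 19.4 at 1 h. Its early libraries lay below all DMSO libraries, its ratio was 0.02 at 4 h, and at 24 h it was again at -0.15, the lowest 24 h ratio of the 60. PRSS8, a surface protease that activates this channel, had the fewest counts of all 60 genes. Its DMSO values of 9.1, 13.8, 8.3 and 12.5 CPM and its 0.5 h values of 13.54, 8.0, 8.5 and 9.5 CPM overlapped widely, and its ratio of -0.14 at 0.5 h is smaller than this spread. SCNN1A overlaps LTBR on the opposite strand over 2686 bp, with mean counts of 242.1 for SCNN1A and 139.4 for LTBR. LTBR had ratios of -0.59, 0.16, -0.69, -0.47 and -0.52 in time order. Without strand, reads of SCNN1A and LTBR cannot be told apart where they overlap.

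ANXA9, an annexin, had a mean count of 611.8 and was among the 5 genes with the highest DMSO level for their length, at 4.77 CPM per kb of gene span. It had 65.2, 62.8, 62.5 and 65.0 CPM in DMSO, 56.9, 57.8, 55.3 and 54.1 at 0.5 h and 52.6, 52.0, 57.3 and 52.7 at 1 h. All 8 early libraries were lower than every DMSO library, and replicate 3 at 1 h stood above the other 3 of that time. The other genes highest by this measure were the lncRNA gene ENSG00000260368 (14.9 CPM per kb), INHBB, the activin beta B subunit (3.26), BCL3 (2.92) and MRPL28, a mitochondrial ribosomal protein (2.90). INHBB had ratios of -0.10 at 0.5 h and -0.14 at 1 h, and MRPL28 had ratios of -0.14 and -0.23.

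The remaining genes with the highest scores cover several roles. SDCBP, the scaffold protein syntenin, had the highest score through its late values, with 12.8, 12.8, 14.4 and 14.9 CPM in DMSO, 11.1, 11.9, 12.4 and 12.1 at 0.5 h, and 14.6, 17.4, 18.3 and 14.3 at 4 h. Its fall was -0.21 at 0.5 h and -0.12 at 1 h, and its ratios of 0.23 at 4 h and 0.27 at 24 h were the highest of the 60 at both times. MAPK8IP3, a scaffold of the JNK pathway, went from -0.22 at 0.5 h to 0.06 at 4 h, and SGCE, epsilon-sarcoglycan, from -0.26 to 0.04. FASTKD1, a mitochondrial RNA-binding protein, had the smallest 0.5 h fall of the highest-scoring 20 genes, -0.12, on a mean count of 107.9. PPP1R12C, a myosin phosphatase subunit, had ratios of -0.21 at 0.5 h and 0.04 at 4 h, and PPP1R26, which binds protein phosphatase 1, of -0.20 and 0.04.

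Another 5 of the highest-scoring genes had early ratios between -0.12 and -0.26. SH2D3A, an SH2 adaptor protein, had ratios of -0.20 at 0.5 h, 0.0011 at 2 h and 0.17 at 4 h. KCTD21 had ratios of -0.16 at 0.5 h and 0.02 at 2 h, with all 8 early libraries below all DMSO libraries. ZCCHC24 had -0.26 at 0.5 h and -0.05 at 4 h, EHBP1L1 had -0.24 at 1 h and 0.04 at 4 h, and ENSG00000267748 had -0.12 at 0.5 h and 0.09 at 4 h. ENSG00000267748 overlaps SPINT2 on the same strand over 3465 bp, and SPINT2 had ratios of -0.12 and -0.10 at 0.5 and 1 h, so the 2 share reads.

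The other 19 genes, named here after their values were seen, had 1 h ratios from -0.12 to -0.28. The deepest at 1 h was PLAG1, a zinc finger transcription factor, at -0.28, and CEP170, a centrosome protein, was at -0.25. CDK6, a kinase of the G1 phase, was at -0.23, -0.22 and -0.19 in the first 3 groups and kept 84.3% of its early fall at 2 h. Lysosome and membrane proteins were among them, with CTSB, the protease cathepsin B, at -0.17 at 1 h, LITAF at -0.20, FLOT2, a flotillin, at -0.19 and BACE1, the beta-secretase, at -0.18. TMEM120A was at -0.23, ELMO2, which acts on Rac with DOCK proteins, at -0.21, CALCOCO1 at -0.21, LCA5, a ciliary protein, at -0.21 and UBE2A, a ubiquitin-conjugating enzyme, at -0.20.

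NCOA7, TADA2B, a subunit of the SAGA-type acetyltransferase complexes, and TTC33 had 1 h ratios of -0.18, -0.17 and -0.14. The noncoding genes had 2 h ratios on both sides of 0, and none passed the test at 2 h in either fit. ENSG00000260368 was at -0.12 and GALNT7-DT at -0.10 at that time, while ENSG00000237301 was at 0.10, ENSG00000243155 at 0.08 and UVRAG-DT at 0.11. UVRAG-DT overlaps UVRAG on the opposite strand, which has a mean count of 2851 against its own 156.

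In the fit across all 26057 genes that passed the low-count filter, which included all 60, 5 of the 60 were called lower at 0.5 h at an FDR under 0.1, where 0.242% of all genes were, and 7 at 1 h, where 0.733% were. Those at 0.5 h were AHDC1, ANXA9, HSPH1, NDRG3 and TSPAN15, a tetraspanin partner of ADAM10. Those at 1 h were AHDC1, ANXA9, C17orf67, CGN, HSPH1, TSPAN15 and TTBK2, a kinase of cilium assembly. The rule used both contrasts, so nothing is read from these counts. With the replicate number as a block the counts were 22 at 0.5 h and 18 at 1 h, where 1.36% and 1.75% of all genes were called lower.

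At 2 h, 1 of the 60 was called lower (0.303% of all genes), and 3 with the block (1.13%), namely C17orf67, BCL3 and TSPAN15. At 4 h and 24 h none was called by edgeR without the block or by DESeq2, while 2 and 3 of the 60 had an unadjusted p under 0.05 in edgeR, against 1946 and 1922 of all 26057 genes. Of all genes, 0.307% were called lower and 0.526% higher at 4 h, and 0.299% and 0.564% at 24 h. With the block 1 was called higher at 24 h, CAPN1, a calcium-dependent protease (log2 fold change 0.18, SE 0.05, adjusted p = 0.0689), where 1.43% of all genes were. Libraries of the 2 groups did not overlap, with DMSO the higher, in 28 of the 60 at 0.5 h (3.38% of eligible genes), 24 at 1 h (3.92%), 5 at 2 h (2.88%) and none at 4 h (2.54%) or 24 h (4.66%). The rule used the ratios at 0.5, 1, 4 and 24 h, so nothing is read from the counts at those times.

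Whether the early fall is present in libraries that did not choose the genes was examined by leaving out 1 replicate number at a time. The rule was run on the other 3 numbers and its 60 genes were read in the replicate left out. These choices shared 33, 27, 33 and 31 genes with the 60 when replicates 1, 2, 3 and 4 were left out. In the replicate left out, the median ratio at 0.5 h was -0.15, -0.14, -0.16 and -0.14, with 51, 46, 51 and 54 of 60 genes below DMSO. Over all eligible genes the medians were between -0.0051 and 0.0094, with 47.6% to 51.7% of genes below DMSO.

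At 1 h the medians in the replicate left out were -0.17, -0.15, -0.06 and -0.12, and 43, 48, 40 and 41 of 60 genes were below DMSO. At 2 h they were between -0.09 and -0.03, and at 4 h between -0.04 and 0.02. At 24 h, in replicates 2, 3 and 4, they were 0.04, 0.09 and 0.05. The early fall was thus in each held-out replicate, smaller than in the libraries that made the choice, and at 4 h the medians lay on both sides of 0.

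**Figure D4:**
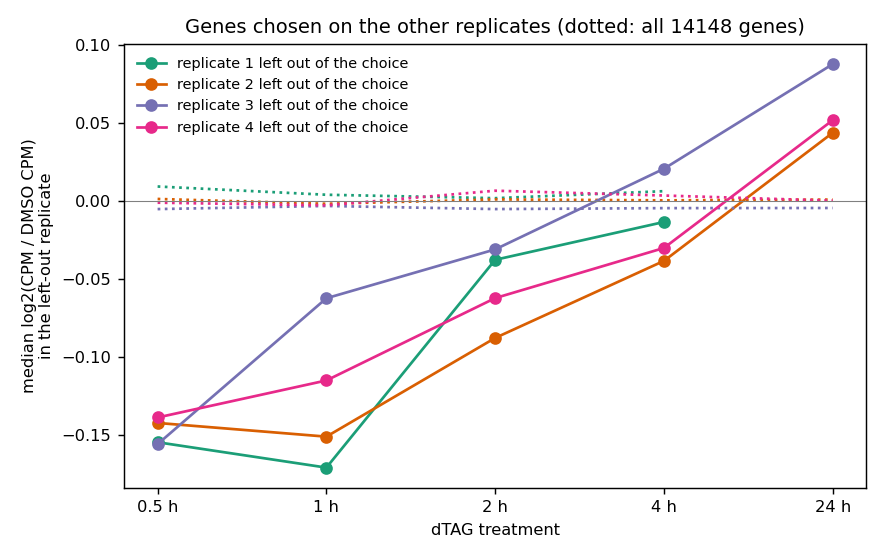
Median log2 ratio to DMSO at each time in the replicate left out, for the 60 genes chosen on the other replicates (solid lines, 1 colour per replicate) and for all eligible genes (dotted lines). All 4 solid lines start between -0.16 and -0.14 at 0.5 h and reach -0.04 to 0.02 at 4 h.

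Which genes make the list was less settled than the course of the group. The rule picked 55 of the 60 again with median-of-ratios size factors and 37 with total counts only. MAPK8IP3 and NDRG3 were picked in all 10 reruns of the rule, and ANXA9 joined them in the 4 that leave out a replicate. PRSS8, INHBB and NCOA7 were among the genes picked in none of these 4.

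The 60 genes were richer in GC and lower in count than other eligible genes. The GC content of the gene span had a median of 50.3%, against 44% over all eligible genes, and 25 of the 60 were in the quintile with the highest GC. The other genes of that quintile had median ratios of -0.0038 at 0.5 h, -0.05 at 1 h and -0.02 at 4 h. The part of GC content in the result was not tested. The 60 had a median span of 28 kb against 35.5 kb, and 24 were in the quintile with the lowest mean counts. None was over 500 kb, as were only 329 of the 14116 eligible genes with an annotated span. Low counts were not particular to the 60. The median mean count was 270.6 in the 60, 222.3 in the lasting-fall group and 398.2 over all eligible genes. The median GC content of the lasting-fall group was 45.6%.

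**Figure D5:**
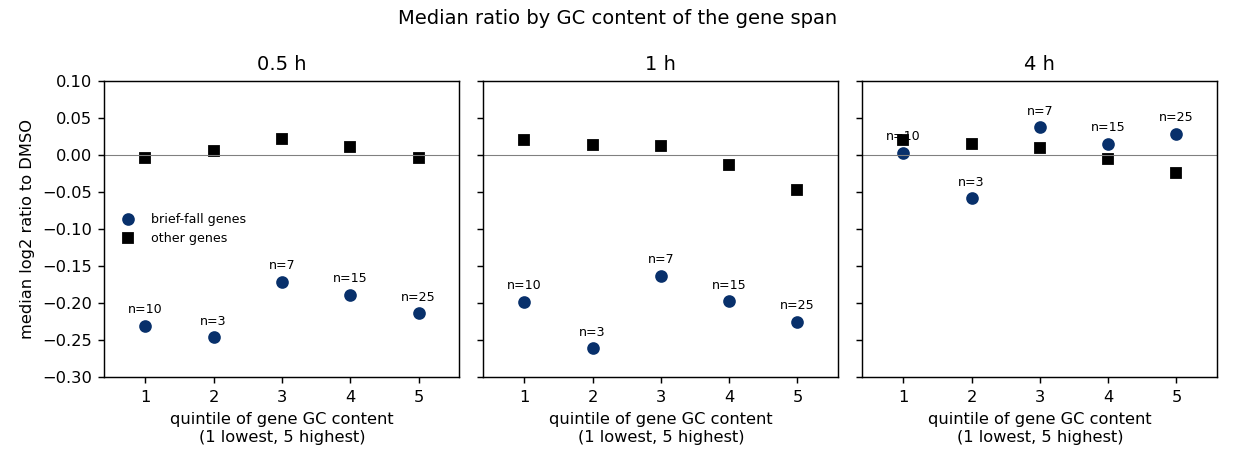
Median log2 ratio to DMSO at 0.5, 1 and 4 h by quintile of gene GC content, for the brief-fall genes (circles, with their number) and all other eligible genes (squares). In the highest quintile the 25 brief-fall genes sit at -0.21 at 0.5 h and 0.03 at 4 h, and the other genes at -0.05 at 1 h and -0.02 at 4 h.

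Some of the 60 lie close together. TNFRSF1A, the main receptor for tumor necrosis factor, and SCNN1A are neighbours 4.7 kb apart on chromosome 12. TNFRSF1A had 12.95, 14.9, 13.1 and 13.1 CPM in DMSO, 9.8, 12.3, 11.2 and 12.8 at 0.5 h and 10.6, 9.6, 10.7 and 11.7 at 1 h, below the DMSO range in all 8. HK1, the first enzyme of glycolysis, and TSPAN15 are 49.6 kb apart on chromosome 10. HK1 had ratios of -0.18 at 0.5 h and 0.06 at 4 h, and TSPAN15 of -0.23 and -0.06. ANXA9, RFX5 and CGN lie within 515 kb on chromosome 1. CAPN1 and EHBP1L1 are 364 kb apart on chromosome 11.

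Overlapping genes limit what is read from single members. For 25 of the 60, another annotated gene overlaps and has at least 0.25 of their mean count. PNPLA6, the neuropathy target esterase, and ENSG00000268614 overlap on the same strand over 6056 bp and share reads. Their mean counts were 264.9 and 170.5. Their like ratios at 1 h (-0.29 and -0.28) are therefore not independent of each other. TBC1D10A, a Rab GTPase-activating protein, overlaps ENSG00000248751 (-0.32 at 0.5 h, -0.28 at 1 h), and MRPL28 overlaps PGAP6 (-0.14 and -0.20). PPP1R26 overlaps its antisense gene PPP1R26-AS1 (-0.18 and -0.16), which cannot be told apart from it without strand.

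Genes of epithelial junctions and polarity, a list of 58 tested genes that holds CGN and PRSS8, had a low median early. The list was chosen with earlier results of these data known and holds 2 genes picked for being low, so this is a description. The median log2 fold change of the list was -0.10 at 0.5 h and -0.10 at 1 h, against 0.0098 and 0.009 over all genes tested, then -0.06 at 2 h and 3e-04 at 4 h. The lists of estrogen-induced genes and of NF-kappaB and immediate-early genes, described below, each had a median of -0.08 at 1 h. At 0.5 h 2 genes passed the test, both lower, and at 1 h 6 did, all lower, when 63 and 191 of all 26057 genes were lower. With the block 11 of the list were lower at 0.5 h, and 12 were lower and 2 higher at 1 h. Of all genes, 354 were lower at 0.5 h with the block, and 457 were lower and 389 higher at 1 h. Beside CGN at 1 h (-0.31), the genes called without the block were CAMSAP3 and SCRIB at 0.5 h (-0.37 and -0.25), and EVPL, GRHL1, ESRP1, GRHL2 and DLG3 at 1 h. GRHL2, an epithelial transcription factor, was at -0.17 at 1 h and -0.17 at 2 h and passed the test at 2 h (edgeR adjusted p = 0.0253). With the block GRHL2 was also lower at 4 h (-0.11, edgeR adjusted p = 0.056) and 24 h (-0.15, edgeR adjusted p = 0.0139). GRHL1 is in the comparison group that was low early and late, with ratios of -0.24 at 4 h and -0.20 at 24 h, the values that ranked it. GRHL1 was called at 1 h in both fits and at 0.5 h with the block, and at no later time. GRHL2 was called at 4 h and 24 h only with the block.

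Nuclear receptors and their coregulators, 67 tested genes that include HDAC11 and HDAC5, had 3, 5, 5 and 4 genes called lower in the groups from 0.5 to 4 h and none called higher in these groups without the block. Of all 26057 genes, 63, 191, 79 and 80 were lower in these groups. With the block 7, 10, 9 and 7 of the list were lower and 0, 1, 1 and 1 higher, against 354, 457, 295 and 247 of all genes lower. The genes of the list called at 0.5 h without the block were GATA3, TLE3 and RARA, and all 3 were lower at 4 h as well. HDAC11 and HDAC5 passed the test at none of these times in either fit. The list of NF-kappaB and immediate-early genes (48 tested), which holds BCL3, had 0 genes called at 0.5 h and 1 lower at 1 h without the block, the immediate-early gene JUN (-0.27). With the block 1 was higher at 0.5 h and 5 were lower at 1 h.

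None of the 60 was in the other 5 lists. At 1 h without the block, when 191 of all 26057 genes were lower and 134 higher, 9 of 62 estrogen-induced genes were lower and 2 higher, 2 of 28 sideroflexin, serine and one-carbon genes were lower, 6 of 62 actin cytoskeleton genes were lower and 1 higher, and 3 of 63 Notch, Wnt and TGF-beta genes were lower. None of 44 insulin, PI3K and FOXO genes was called. With the block, when 457 of all genes were lower and 389 higher, the estrogen list had 16 lower and 4 higher, the one-carbon list 2 lower, the actin list 10 lower and 1 higher, the Notch, Wnt and TGF-beta list 7 lower and 2 higher, and the insulin list 3 lower and 2 higher. At 4 h without the block 4 estrogen-induced genes were higher and 4 lower.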

How the data were processed

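PRO-seq libraries of the T47D dTAG-TRPS1 clone were grouped by their labels into DMSO and 5 dTAG times. The authors deposited counts, as unnormalized whole numbers of reads in each gene, for 60605 Ensembl genes in 23 libraries. The submitters' processing notes name cutadapt 1.8.1, Bowtie2 2.4.4, SAMtools 1.9 and the build hg38. Per the study's methods, PCR duplicates were collapsed by a molecular identifier in the adapter. The annotation release and the use of strand in counting are not given in the sources used here. Counting errors cover sampling of reads only.

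CPM used edgeR TMM factors from the 14148 genes with a mean count of at least 100. Counts were tested in R 4.3.3 with edgeR 4.0.16 (glmQLFit, glmQLFTest) on all libraries, without a replicate term, after filterByExpr (minimum count 10, minimum total 15). Two-sided p-values were adjusted over 26057 genes by the Benjamini-Hochberg method, and an FDR under 0.1 was called. The fit and the rule were tested on simulated data. Spans, strands and names came from GENCODE 44 (60463 identifiers matched), promoters from RefSeq. All 69 promoter windows listed for the 44 genes were read again from hg38 and checked.

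Alternatives were the replicate block, median-of-ratios factors, total counts, no filter, DESeq2 1.42.0, other count minimums and leaving out each replicate. The labels and the study's methods say that each replicate had its own treatment and collection time within 1 day, with its time points collected together, so equal numbers pair libraries. Deviations from group means correlated at a mean r of 0.777, 0.245, 0.676 and 0.325 within replicates 1 to 4 and at -0.139 between numbers.

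The 60 genes and the gene lists were chosen with earlier results of these data known. Genes named are the 20 highest scores, the last 2 inside and first 2 outside the choice, the 5 highest DMSO levels per kb of span, the 5 lowest at 2 h, those called at 2 h and those in a gene list. SFXN3 was named in advance, and other genes were named after their values were seen. Of the 60 genes, 1 is not reported by name here, and counts and medians include it.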

Additional observations from a re-analysis of the deposited data

Results flagged for a closer look

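Among 150 groups of 4 libraries of the named genes, 8 held a library that stood apart from the other 3 by Dixon's test, and chance flags about 1 in 20 groups. C17orf67 had 11.9 CPM in replicate 1 of DMSO, against 15.6 to 16.2 in the others. AHDC1 had 33.1 CPM in replicate 3 at 1 h (others 31.1 to 31.5), and ANXA9 had 57.3 in the same library (others 52 to 52.7). ZCCHC24, a zinc finger protein, had 23 CPM in replicate 1 at 0.5 h (others 30.3 to 31.7) and 36.5 in replicate 3 at 2 h (others 30.9 to 31.8). At 4 h, SGCE had 50.6 CPM in replicate 2 (others 54.7 to 55.5), HDAC11 had 45.7 in replicate 1 (others 38.6 to 38.9) and SFXN3 had 24.2 in replicate 2 (others 22 to 22.3).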

How the results depend on the processing

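The number of the 60 genes called depended on the fit. With the replicate block it was 22, 18 and 3 in the groups from 0.5 to 2 h and 1 at 24 h, against 5, 7, 1 and 0 without it. With total counts only it was 1 at 0.5 h and 0 at 2 h, without the low-count filter 0 at 0.5 h and 0 at 2 h, and with DESeq2 12 at 0.5 h. Calls over all genes moved too, since 63 of 26057 were lower at 0.5 h in the fit reported, 354 with the block, 13 with total counts, 13 of 56126 without the filter and 149 of 26057 with DESeq2. Leaving out each replicate gave 0 to 2 at 0.5 h (0 without replicate 3 or 4), 1 to 5 at 1 h (1 without replicate 4) and 0 to 1 at 2 h (0 without replicate 2, 3 or 4), while 3 to 38, 37 to 108 and 8 to 60 of all genes were lower at these times. The cause was not tested, beyond the fewer libraries in the last case. Rerunning the rule kept 37 of the 60 with total counts only, 38 with a mean count of 50 and 36 with 200, and 27 to 33 without each replicate. The median ratio at 2 h stayed between -0.0995 and -0.056, and the 2 h fold change of each of the 60 named by the stated rule moved by less than 1 SD between replicates. Counts near 100 per library limit the genes of lowest count, where ratios of this size lie within 2 counting errors.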
